A study of Homo sapiens with 92 samples.

Results

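The comparison described here asks which genes are transcribed differently 8 h after mitosis when a degrader of NIPBL is given from the mitotic arrest. It covers 4 of the 92 libraries of the series, chosen by their labels: 2 libraries of cells given the degrader dTAGV-1 (dTAG below) and 2 libraries of cells given its vehicle, DMSO. All 4 came from hTERT RPE-1 cells, human retinal pigment epithelium made immortal with telomerase, and from a single clone, NIPBL-D7, whose genotype is given as mGreenLantern-P2A-FKBP12(F36V)-NIPBL. The degron is therefore carried by the DMSO cells as well. None of these libraries came from cells without the degron, and NIPBL protein was not measured in them. Effects of the compound itself and of NIPBL loss therefore cannot be told apart. In both arms the cells were synchronised by 2 blocks in 2 mM thymidine of 14 h each, with 10 h of release between them and 8 h after them. They then received nocodazole at 20 ng/ml together with dTAGV-1 or DMSO for 120 min, were collected by mitotic shake-off and were released for 8 h into medium with the same compound. 4-thiouridine (4sU) was present at 100 µM for the last 15 min.

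NIPBL activates the cohesin ring, which extrudes DNA into loops and brings distant regulatory elements close to promoters. The FKBP12(F36V) tag lets dTAGV-1 hand the NIPBL protein to the VHL ubiquitin ligase, so its transcript is not the direct target. Cells that leave mitosis pass through G1, where mitogen signals raise D-type cyclins, the retinoblastoma family releases E2F factors, and E2F turns on cyclin E and the genes that license origins and copy DNA. In SLAM-seq, 4sU built into RNA during the pulse is read as T-to-C conversions, so reads with a conversion are enriched for RNA made during the pulse. How many of them came from older RNA or from sequencing errors was not measured here.

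The 8 h libraries held 4357400 and 4579946 converted reads with dTAG and 6166400 and 5912741 with DMSO, among 48711411 and 62430225 reads in all with dTAG and 68104550 and 77581609 with DMSO. Converted reads made up 8.95% and 7.34% of reads with dTAG, against 9.05% and 7.62% with DMSO. The arms overlapped in this share, which averaged 8.14% ± 1.14 with dTAG and 8.34% ± 1.01 with DMSO (SD, n = 2 each, two-sided exact permutation p = 0.667, where 0.333 is the smallest such a design allows). The 10 most abundant genes held 3.36% to 3.61% of converted reads, and no library stood apart. Of the 19 retinal pigment epithelium markers 11 reached 1 CPM of all reads in each of the 4 libraries, among them VIM, KRT8, KRT18, PAX6, OTX2 and MITF. The markers of mature pigment epithelium RPE65, RLBP1, TYR and PMEL lay below 1 CPM, and so did SERPINF1, TYRP1, LHX2 and SIX6. Summed marker levels with dTAG and with DMSO were 0.913 to 1.11 and 0.411 to 1.21 CPM for blood, 0.336 to 0.390 and 0.132 to 0.464 CPM for pluripotent cells, 3.91 to 5.11 and 1.84 to 4.96 CPM for cardiomyocytes and 3.48 to 4.02 and 3.35 to 4.81 CPM for endothelium. The neuron list came to 548 to 587 CPM with dTAG and 489 to 565 CPM with DMSO, nearly all of it SYT1 and MAP2, while TUBB3 and DCX lay below 1 CPM. The fibroblast and smooth muscle list (3 of 5 markers above 1 CPM in all 4 libraries) came to 106 to 119.6 CPM with dTAG and 95.6 to 95.95 CPM with DMSO, with arms apart, and its part in the results was not tested. Its ACTA2 had 72.3 and 75.4 CPM with dTAG, against 56.1 and 56.7 CPM with DMSO. The labels do not say whether libraries of an arm came from separate cultures, so the tests below measure the spread between libraries, which may be technical.

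Levels below are converted reads per 1000000 (CPM), on TMM-scaled library sizes, given for dTAG replicates 1 and 2 and then DMSO replicates 1 and 2. Changes are log2 of dTAG over DMSO ± SE from edgeR's quasi-likelihood test with Benjamini-Hochberg adjustment, fitted on 14566 genes with a spread shared over the 4, 6 and 8 h libraries. At an adjusted p of 0.05, 673 genes (4.62%) were lower and 513 (3.52%) were higher with dTAG at 8 h. The median size of the change was 0.97 among the lower genes and 0.79 among the higher ones on the log2 scale. A change of at least 1 on the log2 scale was reached by 323 lower and 160 higher genes, and one of at least 2 by 88 and 19. With library sizes taken from all reads instead, 536 genes were lower and 247 higher, so that 68.5% of calls were falls rather than 56.7%. The 673 and 513 calls became 392 and 203 without dTAG replicate 1, 371 and 339 without dTAG replicate 2, 348 and 199 without DMSO replicate 1, and 405 and 191 without DMSO replicate 2.

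Of the 673 lower genes, 394 were also lower at 6 h (58.5% of them and 57.4% of the genes lower at 6 h, against 4.72% of all tested). At 4 h, 295 were already lower (43.8% of them and 57.7% of the genes lower at 4 h, against 3.51%). Of the 513 higher genes, 256 were also higher at 6 h (49.9% and 74.0%, against 2.38%) and 179 at 4 h (34.9% and 64.9%, against 1.89%). At 8 h and at neither earlier time, 260 genes were called lower and 214 higher, but these counts compare calls and not the effects themselves. Tested directly, the 8 h effect differed from the 4 h effect negatively for 58 genes and positively for 25. From the 6 h effect it differed for 1 gene. In either direction, 1033 genes (7.09%) were called at 6 h and 787 (5.4%) at 4 h. None of the lower genes and 3 of the higher genes were called in the opposite direction earlier.

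Of the groups examined, the machinery of DNA replication had the largest share of lower genes at 8 h. Of 25 tested genes for origin licensing and firing, 19 fell with dTAG (median log2 change -1.80). Of 31 tested genes for DNA synthesis and forks, 28 fell (median -1.53), and of 10 for nucleotide supply, 3 fell (median -0.36). Taken as 1 list, 50 of these 66 genes were called lower and 0 higher by edgeR, set against 4.62% lower and a median of 0.01 over all tested genes. At an unadjusted p of 0.05, 1 of them was higher, and DESeq2's own test called 42 lower and 0 higher. On all reads in place of converted reads, 40 of 67 tested members were lower and 0 higher. At 4 h the same 66 genes gave 1 lower and 1 higher call with a median of -0.06, and at 6 h 11 lower and 0 higher with a median of -0.46. In bulk libraries, fewer cells on their way into S phase and less new RNA per cell cannot be told apart.

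**Figure D1:**
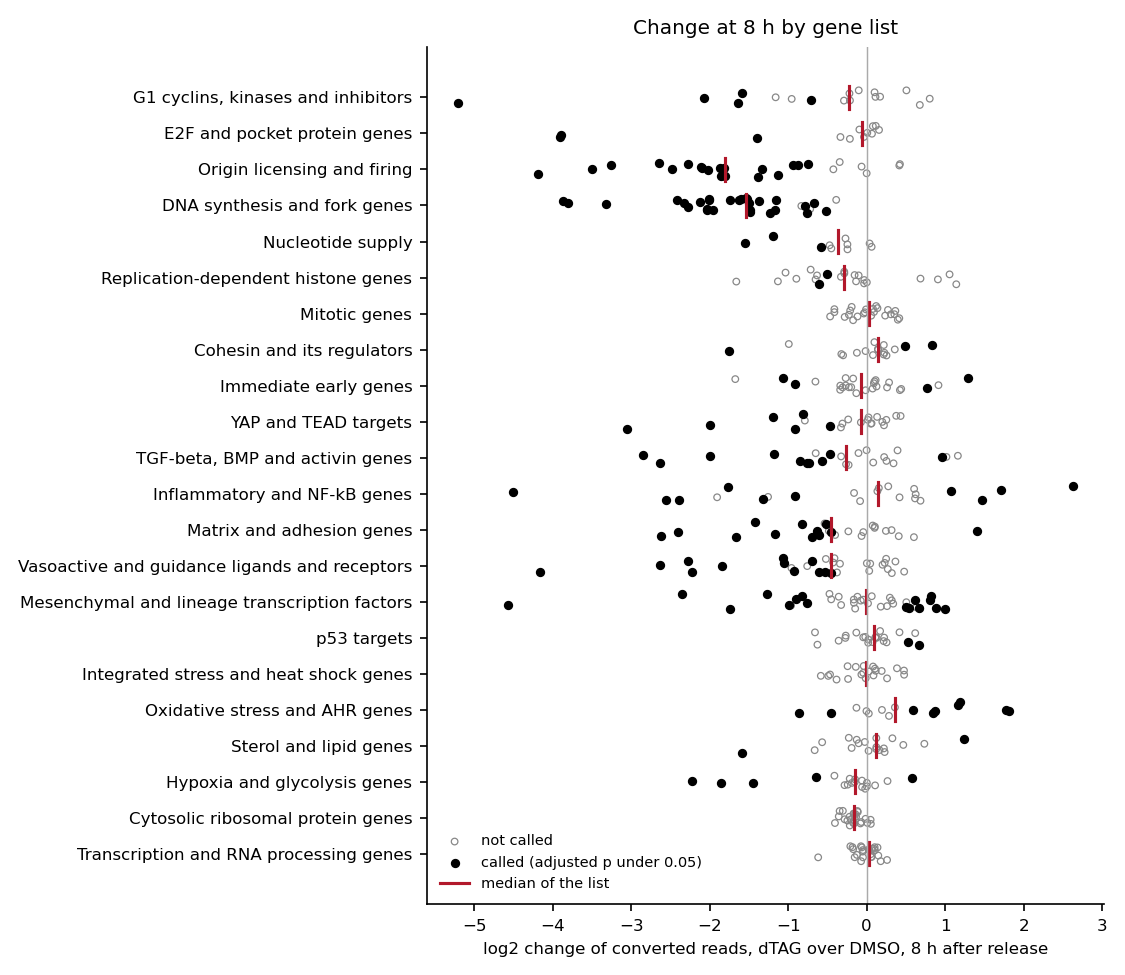
Log2 change of converted reads, dTAG over DMSO, at 8 h for the tested genes of each of the 22 lists (rows), one point per gene, filled where the adjusted p was under 0.05, with a red bar at each list's median. The licensing and DNA synthesis lists lie almost wholly left of 0 (medians -1.80 and -1.53), while the mitotic and transcription lists have medians of 0.02 and 0.03 and no filled point.

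Upstream of that machinery, 5 of 17 tested G1 cyclin, kinase and inhibitor genes fell with dTAG and 0 rose by edgeR (1 at an unadjusted p of 0.05 and 0 by DESeq2). Over all tested genes, edgeR called 4.62% lower and 3.52% higher. CCND1 (chr11:69641087-69654474, hg38), which encodes cyclin D1, the first cyclin of G1, had 207 and 203 CPM with dTAG, against 639.9 and 637 CPM with DMSO. The arms lay far apart, and the change was -1.64 ± 0.14 (adjusted p = 1.16e-06). It had the same size at the earlier times, with -1.40 at 4 h and -1.51 at 6 h. CCNE2, encoding the S phase cyclin E2, had 0 and 0.625 CPM with dTAG, against 14.1 and 12.3 CPM with DMSO. These values stand for 0 and 3 converted reads with dTAG and 89 and 75 with DMSO, a ratio of 0.0247 with an exact interval of 0.00505 to 0.0735 (95%, counting error only). CCNE2 passed the test at 8 h (adjusted p = 5.12e-06) and at 6 h (log2 change -2.09, adjusted p = 0.0108), but had -0.30 at 4 h (adjusted p = 0.851). CDC25A, the phosphatase that activates the cyclin E and cyclin A kinases, had 7.91 and 6.46 CPM with dTAG, against 33.4 and 26.9 CPM with DMSO, a change of -2.07 ± 0.27 (adjusted p = 6.91e-05). Its 4 libraries separated by arm, whereas at 4 h its log2 change was -0.65 with an adjusted p of 0.34. The other called members were CDKN2B, an inhibitor of CDK4 and CDK6 (-1.59 ± 0.40), and SKP2, which directs p27 to degradation (-0.71 ± 0.15). Both lost their call without single libraries: CDKN2B gave -1.13 (adjusted p = 0.226) without dTAG replicate 1 and -1.34 (0.142) without DMSO replicate 2. SKP2 gave -0.60 (adjusted p = 0.0927) without dTAG replicate 2 and -0.70 (0.0618) without DMSO replicate 1.

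Among 12 tested E2F and pocket protein genes, 3 fell and 0 rose by edgeR, beside 4.62% and 3.52% of all tested genes. None was higher at an unadjusted p of 0.05 or by DESeq2. E2F1, an activator of S phase genes that is itself an E2F target, had 0.233 and 1.04 CPM with dTAG, against 12.02 and 8.54 CPM with DMSO. E2F2, a second activator, had 0.465 and 0.208 CPM with dTAG, against 4.59 and 6.07 CPM with DMSO, from 2 and 1 converted reads against 29 and 37. Both genes had few converted reads with dTAG, at changes of -3.91 ± 0.50 for E2F1 (adjusted p = 5.67e-05) and a ratio of 0.0614 for E2F2 (interval 0.0124 to 0.188, adjusted p = 0.00197). RBL1, the pocket protein p107, had 19.5 and 17.1 CPM with dTAG, against 49.3 and 47.4 CPM with DMSO (-1.40 ± 0.20, adjusted p = 0.000216). At 4 h the 3 genes had log2 changes of 0.24, 0.83 and -0.31, none of them called.

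E2F factors bind sites close to the start of such genes, so the promoters of the called cell cycle genes were searched for 4 octamers of the E2F consensus, TTTGGCGC, TTTGGCGG, TTTCCCGC and TTTCCCGG, on both strands. The 5 promoters shown here belong to the genes with the largest falls among 8 called cell cycle genes that hold an octamer in the 250 bases before the start and whose RefSeq and deposited starts lie within 25 bases of each other. They are the 250 bases before the RefSeq start (GRCh38.p14), in the direction of transcription, with the octamer or its reverse complement in capitals.
E2F1 (chr20:33686386-33686635, minus strand): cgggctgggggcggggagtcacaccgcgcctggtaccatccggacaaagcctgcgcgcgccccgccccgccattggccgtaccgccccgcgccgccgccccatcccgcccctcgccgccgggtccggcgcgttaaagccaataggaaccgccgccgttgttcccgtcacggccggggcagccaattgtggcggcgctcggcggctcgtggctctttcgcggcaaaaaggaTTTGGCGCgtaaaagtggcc
E2F2 (chr1:23531234-23531483, minus strand): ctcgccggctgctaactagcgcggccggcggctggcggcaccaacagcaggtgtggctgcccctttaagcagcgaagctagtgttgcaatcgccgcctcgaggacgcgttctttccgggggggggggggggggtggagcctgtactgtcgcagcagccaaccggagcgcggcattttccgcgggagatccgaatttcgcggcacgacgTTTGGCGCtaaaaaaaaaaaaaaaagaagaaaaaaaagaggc
CDC25A (chr3:48188418-48188667, minus strand): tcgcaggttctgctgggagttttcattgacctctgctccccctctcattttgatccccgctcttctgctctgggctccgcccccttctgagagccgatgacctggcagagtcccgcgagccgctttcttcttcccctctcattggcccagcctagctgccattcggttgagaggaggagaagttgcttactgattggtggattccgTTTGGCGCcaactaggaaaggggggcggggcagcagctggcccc
MCM6 (chr2:135876444-135876693, minus strand): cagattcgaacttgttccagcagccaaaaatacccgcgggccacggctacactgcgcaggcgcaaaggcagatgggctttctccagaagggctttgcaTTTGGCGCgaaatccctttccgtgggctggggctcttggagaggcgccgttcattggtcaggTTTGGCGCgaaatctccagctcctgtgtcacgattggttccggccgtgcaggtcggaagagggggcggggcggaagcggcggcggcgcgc
POLA1 (chrX:24693668-24693917, plus strand): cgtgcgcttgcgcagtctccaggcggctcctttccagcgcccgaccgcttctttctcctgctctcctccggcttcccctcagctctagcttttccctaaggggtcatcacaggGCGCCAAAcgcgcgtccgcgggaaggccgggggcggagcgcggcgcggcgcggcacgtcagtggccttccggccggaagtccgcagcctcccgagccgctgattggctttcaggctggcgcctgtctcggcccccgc
The match begins 20 bases before the start in E2F1, 42 in E2F2 and 44 in CDC25A. MCM6 has matches at 152 and 90 bases, and POLA1 has one at 137 bases, read on the opposite strand. In windows of 300 bases that reach 50 bases past the start, 21 of 41 called licensing and DNA synthesis genes with a RefSeq promoter held an octamer (51.2%), as did 3 of 9 members of these lists that were not called (33.3%). So did 79 of 519 genes lower at 8 h (15.2%), 18 of 370 higher at 8 h (4.86%) and 707 of 9884 tested (7.15%). Over all 35116 RefSeq promoters the share was 4.31%. A match describes the letters of the window and not binding.

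At origins, ORC1, the subunit of the origin recognition complex that is made anew in each cycle, had 2.09 and 1.04 CPM with dTAG, against 17.6 and 12.3 CPM with DMSO (-3.25 ± 0.37, adjusted p = 1.69e-05). CDC6, which works with ORC to load the MCM helicase, had 8.14 and 6.67 CPM with dTAG, against 20.4 and 18.4 CPM with DMSO (-1.39 ± 0.24, adjusted p = 0.00115). The arms of both genes were separate. CDT1, the second loader, gave 1 and 0 converted reads with dTAG against 14 and 17 with DMSO, a ratio of 0.0436 (interval 0.00107 to 0.262, adjusted p = 0.00417). This last call rests on few reads, and without dTAG replicate 2 its log2 change was -3.28 with an adjusted p of 0.073.

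All 6 subunits of the MCM2-7 helicase ring fell with dTAG, by -1.86 (MCM2), -2.28 (MCM3), -2.11 (MCM4), -2.02 (MCM5), -1.87 (MCM6) and -0.88 (MCM7) on the log2 scale. MCM3 had 11.4 and 9.38 CPM with dTAG, against 58.8 and 41.9 CPM with DMSO (adjusted p = 2.80e-06). MCM6, the gene with a pair of octamers above, had 10.9 and 9.38 CPM with dTAG, against 40.6 and 33.7 CPM with DMSO (adjusted p = 5.15e-06) and was the only subunit already called at 4 h (-0.72, adjusted p = 0.0416). MCM7 fell least and lost its call without dTAG replicate 1 (-0.94, adjusted p = 0.0808), without dTAG replicate 2 (-0.82, 0.124) and without DMSO replicate 1 (-0.63, 0.248). The firing factor MCM10 had 2.33 and 1.67 CPM with dTAG, against 24.2 and 21.3 CPM with DMSO (-3.50 ± 0.32, adjusted p = 1.55e-06), and CDC45, the partner of the active helicase, had 3.26 and 2.71 CPM with dTAG, against 21.98 and 15.6 CPM with DMSO (-2.65 ± 0.29, adjusted p = 1.22e-05). In each of these 8 genes both dTAG libraries lay below both DMSO libraries.

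At the fork, POLA1, the catalytic subunit of the primase-coupled polymerase, had 36.3 and 36.1 CPM with dTAG, against 115 and 109 CPM with DMSO (-1.63 ± 0.15, adjusted p = 1.55e-06). CLSPN, which relays fork stress to the checkpoint, had 5.58 and 7.71 CPM with dTAG, against 35.9 and 31.5 CPM with DMSO (-2.33 ± 0.22, adjusted p = 2.35e-06). EXO1, an exonuclease of mismatch repair and break resection, had 1.16 and 1.25 CPM with dTAG, against 17.7 and 16.9 CPM with DMSO (-3.81 ± 0.36, adjusted p = 2.27e-06). Replicates of these genes agreed far more closely than the arms did. DTL, the ubiquitin ligase receptor that removes CDT1 in S phase, had 9.31 and 7.09 CPM with dTAG, against 83.8 and 79.8 CPM with DMSO (-3.32 ± 0.20, adjusted p = 2.47e-08). This was the fourth largest fall among called genes with a mean log2 CPM of at least 3, separate arms and a name not based on a clone. BRCA1, needed for repair by recombination, had 8.61 and 7.71 CPM with dTAG, against 34.01 and 33.2 CPM with DMSO (-2.04 ± 0.19, adjusted p = 2.27e-06). Among genes of nucleotide supply, TYMS, which makes thymidylate, had 13.03 and 16.05 CPM with dTAG, against 40.8 and 44.8 CPM with DMSO (-1.55 ± 0.19, adjusted p = 2.84e-05), and DUT, the dUTPase, had 14.9 and 11.3 CPM with dTAG, against 30.2 and 29.4 CPM with DMSO (-1.19 ± 0.21, adjusted p = 0.0013). DUT did not pass the test on all reads, where its change was -0.39 (adjusted p = 0.289).

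**Figure D2:**
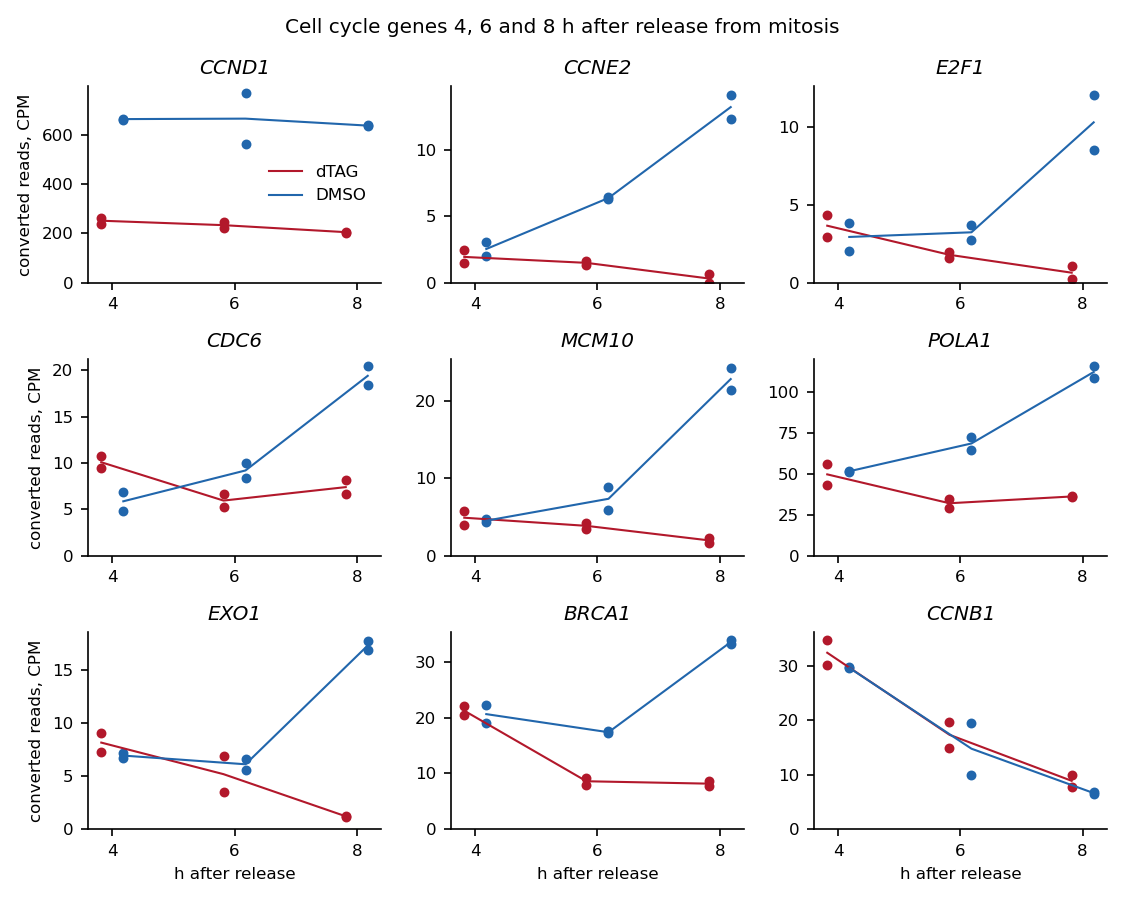
Converted reads (CPM, linear axes from 0) of 9 cell cycle genes in each library 4, 6 and 8 h after release, dTAG in red and DMSO in blue, with lines through the means of 2 libraries and the arms set slightly to either side of each time. CCND1 is lower with dTAG at each time, the arms of the genes from CCNE2 to BRCA1 differ by far less at 4 h than at 8 h, where the DMSO levels are highest, and CCNB1 declines in both arms, to 10.0 and 7.71 CPM with dTAG and 6.48 and 6.73 CPM with DMSO at 8 h.

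Mitotic and histone genes gave few calls. None of 24 mitotic genes was called by edgeR or by DESeq2 at 8 h, or had an unadjusted p under 0.05 (median 0.02, or -0.05 with library sizes from all reads). The 22 tested replication-dependent histone and histone regulator genes, which are used in S phase, had a median of -0.29 with 17 negative changes. In 10 of them the arms were apart and lower and in 3 apart and higher, beside 25.1% and 25.8% of all tested genes. Of the 22 genes, 2 fell, beside 4.62% of all tested genes: NPAT (-0.61 ± 0.16) and SLBP (-0.50 ± 0.15), which activate histone transcription and process histone mRNA. Both had adjusted p-values close to the threshold (0.0239 and 0.0441) and lost their calls without any one of the 4 libraries, with NPAT at -0.51 to -0.71 and SLBP at -0.46 to -0.55.

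The change in the effect between 4 and 8 h was tested directly, as the 8 h log2 change minus the 4 h log2 change. It was negative for 58 genes (0.398% of those tested) and positive for 25 (0.172%), and with library sizes from all reads for 76 and 6. Of the 58, 56 were among the genes lower at 8 h, as were 4.62% of all tested genes, and choosing negative differences favours such genes. The 5 cell cycle lists held 20 of the 58. These lists hold 17, 12, 25, 31 and 10 of the 14566 tested genes. In 41 of the 58, both DMSO libraries at 8 h lay above both at 4 h while both dTAG libraries at 8 h lay below both at 4 h, as did 2.04% of all tested genes. The test that chose the 58 favours this pattern, so the count is only a description of them. The 58 became 20 without dTAG replicate 2, 22 without DMSO replicate 1, 37 without DMSO replicate 2 and 43 without dTAG replicate 1, and 14 on all reads.

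Genes of DNA replication and repair were among those with this late change. EXO1 had 7.26 and 9.05 CPM with dTAG, against 6.73 and 7.13 CPM with DMSO at 4 h and 1.16 and 1.25 CPM with dTAG, against 17.7 and 16.9 CPM with DMSO at 8 h, a difference of effects of -4.03 ± 0.49 (adjusted p = 0.000943). It was also the single gene (0.00687%) whose 8 h effect differed from its 6 h effect, by -3.53 ± 0.52 (adjusted p = 0.0455). No gene passed that test without dTAG replicate 2 or without DMSO replicate 2, EXO1 was not the gene that passed without the others, and 10 genes passed with DESeq2's test. MCM10 had 4.03 and 5.79 CPM with dTAG, against 4.73 and 4.33 CPM with DMSO at 4 h, with arms that overlapped, and a difference of -3.59 ± 0.49 (adjusted p = 0.00178). POLA1 had 56.2 and 43.1 CPM with dTAG, against 51.9 and 51.2 CPM with DMSO at 4 h and a difference of -1.59 ± 0.21 (adjusted p = 0.0014). Among genes in none of the lists, BRIP1, a helicase that works with BRCA1, had 59.95 and 45.6 CPM with dTAG, against 33.5 and 32.1 CPM with DMSO at 4 h and 14.2 and 14.6 CPM with dTAG, against 65.3 and 53.4 CPM with DMSO at 8 h, a difference of -2.74 ± 0.29 (adjusted p = 0.000334). The order of the arms thus turned over between the times. MND1, known from meiotic recombination, had 16.1 and 8.33 CPM with dTAG, against 7.1 and 4.33 CPM with DMSO at 4 h and 5.35 and 2.71 CPM with dTAG, against 19.5 and 16.9 CPM with DMSO at 8 h, a difference of -3.28 ± 0.52 (adjusted p = 0.00611). On all reads the differences of POLA1, BRIP1 and MND1 were -0.93, -1.39 and -1.03, with adjusted p-values of 0.256, 0.097 and 0.96.

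Of the 25 genes with positive differences, 21 were lower with dTAG at 4 h, while at 8 h 7 were lower and 7 higher. The test that chose the 25 favours genes low at 4 h, so these counts are only a description of them. In TRPC4, COL4A1 and MAP2, both DMSO libraries at 8 h lay below both at 4 h, so the smaller gap does not by itself show a rise with dTAG. TRPC4, a calcium-permeable channel, had 19.4 and 14.8 CPM with dTAG, against 90.3 and 108 CPM with DMSO at 4 h and 44.2 and 30.01 CPM with dTAG, against 46.03 and 36.9 CPM with DMSO at 8 h. The arms were apart at 4 h and overlapped at 8 h, a difference of 2.35 ± 0.30 (adjusted p = 0.00101). COL4A1, a basement membrane collagen chain, had 146 and 143 CPM with dTAG, against 502 and 637 CPM with DMSO at 4 h and 200.1 and 185 CPM with dTAG, against 333 and 348 CPM with DMSO at 8 h, so that it was still lower at 8 h but by less (-0.82 ± 0.14, difference 1.16 ± 0.20, adjusted p = 0.0113). That difference was 1.13 (adjusted p = 0.0773) without DMSO replicate 1 and 1.01 (0.184) with library sizes from all reads. MAP2, a microtubule-associated protein, had 113 and 87.98 CPM with dTAG, against 146 and 157 CPM with DMSO at 4 h and 97.7 and 89.6 CPM with dTAG, against 52.4 and 48.3 CPM with DMSO at 8 h, and so crossed over to a rise (0.90 ± 0.14, difference 1.48 ± 0.20, adjusted p = 0.0014). On all reads MAP2 had a change of 0.17 at 8 h (adjusted p = 0.737).

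**Figure D3:**
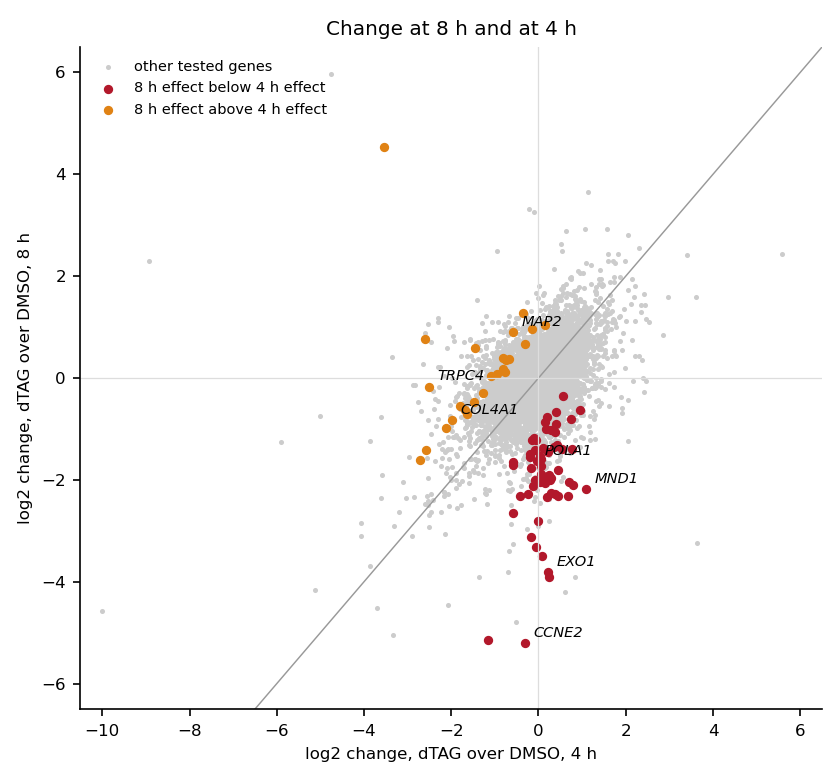
Log2 change, dTAG over DMSO, at 8 h (vertical axis) against 4 h (horizontal axis) for the 14566 tested genes, with the 58 genes whose 8 h effect was lower in red, the 25 whose 8 h effect was higher in orange and the line of equal effects in grey. The red genes lie on both sides of 0 at 4 h (median 0.15) and below 0 at 8 h (median -1.79), and the orange genes lie mostly below 0 at 4 h.

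Outside the cell cycle, several of the largest falls were in genes for secreted signals and for their receptors. By edgeR, 12 of 29 tested genes for vasoactive and guidance ligands and receptors fell at 8 h and 0 rose, with a median of -0.46. Over all tested genes 4.62% were lower and 3.52% higher. At an unadjusted p of 0.05, 2 genes of the list were higher, and DESeq2 called 9 lower and 0 higher. The 12 became 5 without dTAG replicate 1, 6 without dTAG replicate 2, 6 without DMSO replicate 1 and 8 without DMSO replicate 2, and 1 gene of the list was higher with DESeq2's size factors. EDN1 (chr6:12290363-12297194), the vasoconstrictor endothelin-1, had 5.12 and 4.59 CPM with dTAG, against 78.8 and 94.9 CPM with DMSO (-4.16 ± 0.24, adjusted p = 1.74e-08). LPAR1, which binds lysophosphatidic acid, had 106 and 82.5 CPM with dTAG, against 644 and 529 CPM with DMSO (-2.64 ± 0.18, adjusted p = 7.65e-08). VEGFA, the endothelial growth factor, had 45.4 and 41.5 CPM with dTAG, against 245 and 163 CPM with DMSO (-2.23 ± 0.27, adjusted p = 3.75e-05). All 3 genes had arms far apart, and at 4 h their log2 changes were -5.13, -3.19 and -2.16. VEGFA is a target of hypoxia-inducible factors. The genes of their subunits HIF1A and EPAS1 fell as well, and whether these falls are linked was not tested. HIF1A had 150.05 and 119.8 CPM with dTAG, against 366 and 368 CPM with DMSO (-1.44 ± 0.13, adjusted p = 1.88e-06), and EPAS1 had 6.98 and 8.13 CPM with dTAG, against 28.8 and 26.4 CPM with DMSO (-1.86 ± 0.22, adjusted p = 2.21e-05). They belong to a list of 19 tested hypoxia and glycolysis genes, of which 4 fell and 1 rose (median -0.15), beside 4.62% and 3.52% of all tested genes. The rise was lost without any one of the 4 libraries and with library sizes from all reads.

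Among 23 tested genes of the TGF-beta, BMP and activin pathways, 9 fell and 1 rose (median -0.26), beside 4.62% and 3.52% of all tested genes. The rise was lost without dTAG replicate 1, DMSO replicate 1 or DMSO replicate 2, and with library sizes from all reads. The ligand BMP2 had 7.91 and 4.59 CPM with dTAG, against 58.7 and 30.7 CPM with DMSO (-2.85 ± 0.34, adjusted p = 2.42e-05), with replicates that differed widely in both arms but no overlap between them. GDF6, a second ligand of the BMP family, had 8.14 and 9.17 CPM with dTAG, against 81.6 and 67.5 CPM with DMSO (-3.10 ± 0.25, adjusted p = 5.58e-07). TGFB2 had 143 and 163 CPM with dTAG, against 516 and 702 CPM with DMSO (-1.995 ± 0.21, adjusted p = 9.45e-06). These ligands fell together with FST, the activin antagonist follistatin, which had 2.09 and 3.75 CPM with dTAG, against 19.5 and 17.6 CPM with DMSO (-2.63 ± 0.29, adjusted p = 1.48e-05), and with SMAD3, the pathway's transcription factor, which had 368 and 403 CPM with dTAG, against 676 and 712 CPM with DMSO (-0.85 ± 0.12, adjusted p = 0.000186).

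The inflammatory and NF-kB list was divided, with 6 of 22 tested genes lower and 4 higher, beside 4.62% and 3.52% of all tested genes. Its median was 0.15, or -0.10 without DMSO replicate 2 and -0.08 without dTAG replicate 2. PTX3, a secreted pentraxin, had the second largest fall by the rule used to rank DTL. It had 13.96 and 10.6 CPM with dTAG, against 310.2 and 247 CPM with DMSO (-4.51 ± 0.20, adjusted p = 8.71e-10). The cytokine IL6 had 5.58 and 6.67 CPM with dTAG, against 35.4 and 29.1 CPM with DMSO (-2.39 ± 0.23, adjusted p = 3.05e-06). The interleukin-1 genes, neighbours on chromosome 2, both fell: IL1B had 11.6 and 19.4 CPM with dTAG, against 80.8 and 104 CPM with DMSO (-2.56 ± 0.21, adjusted p = 5.13e-07) and IL1A had 25.1 and 29.6 CPM with dTAG, against 94.9 and 92.6 CPM with DMSO (-1.77 ± 0.17, adjusted p = 2.27e-06). In the other direction, the chemokine CXCL8 had 12.6 and 8.75 CPM with dTAG, against 3.95 and 2.46 CPM with DMSO (1.71 ± 0.42, adjusted p = 0.0161), and IL11, a cytokine of the IL6 family, had 15.6 and 8.75 CPM with dTAG, against 2.37 and 1.48 CPM with DMSO (2.63 ± 0.54, adjusted p = 0.00476). These rises depended on single libraries: the 4 rises of the list became 1 without dTAG replicate 1, 3 without dTAG replicate 2, 3 without DMSO replicate 1 and 0 without DMSO replicate 2. CXCL8 had an adjusted p of 0.165 without dTAG replicate 1 and 0.144 without DMSO replicate 2, and IL11 had 0.0791 and 0.0556. On all reads neither passed, at 1.06 for CXCL8 (adjusted p = 0.17) and 1.72 for IL11 (adjusted p = 0.122).

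Of 25 tested matrix and adhesion genes, 11 fell and 1 rose (median -0.46), beside 4.62% and 3.52% of all tested genes. The 11 became 8 without dTAG replicate 1, 8 without dTAG replicate 2, 8 without DMSO replicate 1, 6 without DMSO replicate 2, and 7 with library sizes from all reads. ITGA11, a collagen receptor subunit, had 5.82 and 9.17 CPM with dTAG, against 41.3 and 52.04 CPM with DMSO (-2.62 ± 0.22, adjusted p = 7.02e-07). HAS2, a hyaluronan synthase, had 4.65 and 4.59 CPM with dTAG, against 28.5 and 20.7 CPM with DMSO (-2.41 ± 0.26, adjusted p = 1.03e-05), and VCAN, the proteoglycan versican that binds hyaluronan, had 509.9 and 534 CPM with dTAG, against 1599 and 1706 CPM with DMSO (-1.66 ± 0.17, adjusted p = 4.49e-06). The member that rose was TNC, the matrix protein tenascin-C, which had 229.8 and 182 CPM with dTAG, against 89.2 and 65.5 CPM with DMSO (1.41 ± 0.21, adjusted p = 0.000334). On all reads TNC had 0.78 (adjusted p = 0.105). Among 21 tested YAP and TEAD targets, 6 fell and 0 rose by edgeR, beside 4.62% and 3.52% of all tested genes. At an unadjusted p of 0.05, 2 were higher, and DESeq2 called 1 higher. THBS1, a matricellular thrombospondin, had 99.8 and 125 CPM with dTAG, against 657 and 1212 CPM with DMSO (-3.06 ± 0.35, adjusted p = 2.01e-05), with DMSO replicates that differed widely but stayed above both dTAG libraries. F3, tissue factor, the trigger of coagulation, had 477 and 383 CPM with dTAG, against 1027 and 945 CPM with DMSO (-1.20 ± 0.14, adjusted p = 2.07e-05). PLAT, the tissue plasminogen activator, is in none of the lists and had 91.4 and 117 CPM with dTAG, against 546 and 648 CPM with DMSO (-2.52 ± 0.18, adjusted p = 1.69e-07). UGCG, which makes glucosylceramide, likewise had 106 and 92.3 CPM with dTAG, against 582 and 544 CPM with DMSO (-2.50 ± 0.13, adjusted p = 3.03e-09), the narrowest error among the 15 largest falls.

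**Figure D4:**
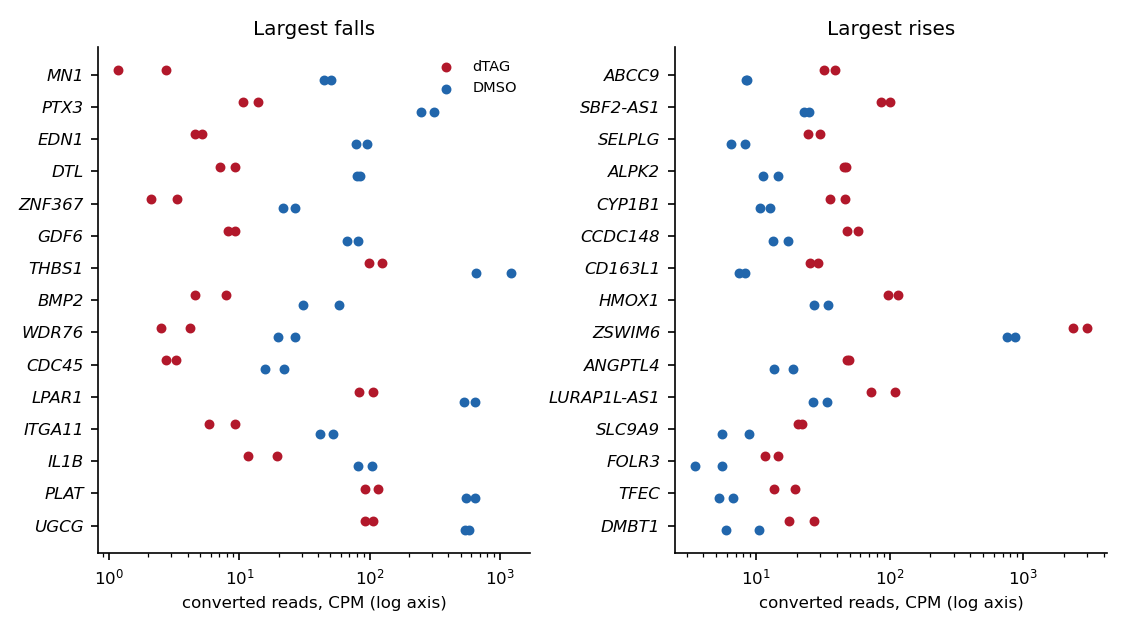
Converted reads (CPM, log axes) at 8 h in each library for the 15 largest falls (left) and 15 largest rises (right) among called genes with a mean log2 CPM of at least 3 and arms that do not overlap, dTAG in red above DMSO in blue. Genes with clone-based names were left out. In each row both dTAG points lie on the same side of both DMSO points.

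Transcription factors moved in both directions. Of 38 tested mesenchymal and lineage factors, 8 fell and 8 rose (median -0.01), beside 4.62% and 3.52% of all tested genes. Leaving out dTAG replicate 1, dTAG replicate 2, DMSO replicate 1 and DMSO replicate 2 in turn gave 5, 6, 6 and 5 falls and 5, 7, 4 and 3 rises, and library sizes from all reads gave 7 and 4. MN1 (chr22:27748277-27801498), a transcriptional coregulator, had the largest fall by the rule used to rank DTL. It had 1.16 and 2.71 CPM with dTAG, against 44.9 and 50.6 CPM with DMSO (-4.58 ± 0.28, adjusted p = 3.95e-08). At 4 h it had no converted read in either dTAG library, against 28.8 and 28.3 CPM with DMSO. SNAI2, a repressor of epithelial genes, had 4.19 and 2.08 CPM with dTAG, against 14.7 and 17.1 CPM with DMSO (-2.35 ± 0.30, adjusted p = 4.57e-05). GATA6 had 38.6 and 32.9 CPM with dTAG, against 122 and 118 CPM with DMSO (-1.75 ± 0.14, adjusted p = 5.13e-07), and RUNX2, a factor of bone formation, had 160.3 and 159 CPM with dTAG, against 352 and 418 CPM with DMSO (-1.27 ± 0.14, adjusted p = 1.03e-05). Higher with dTAG was ZEB1, which like SNAI2 represses epithelial genes, at 884 and 697 CPM with dTAG, against 407 and 388 CPM with DMSO (0.99 ± 0.16, adjusted p = 0.000456). MEIS2, a homeodomain factor, had 1152 and 1009 CPM with dTAG, against 605 and 633 CPM with DMSO (0.80 ± 0.13, adjusted p = 0.000414). OTX2, a factor of pigment epithelium identity, had 40.7 and 33.97 CPM with dTAG, against 21.7 and 18.7 CPM with DMSO (0.88 ± 0.16, adjusted p = 0.00204), and without DMSO replicate 2 gave 0.78 (adjusted p = 0.0528). Among immediate early genes, 2 of 26 fell and 2 rose, counts near the 4.62% and 3.52% of all tested genes, and the falls were MYC and DUSP1. MYC, which drives growth and entry into the cycle, had 27.5 and 34.6 CPM with dTAG, against 64.2 and 66.6 CPM with DMSO (-1.07 ± 0.20, adjusted p = 0.00164), and DUSP1, a phosphatase of MAP kinases, had 27.7 and 29.2 CPM with dTAG, against 54.3 and 52.5 CPM with DMSO (-0.91 ± 0.15, adjusted p = 0.000563). The 2 rises were lost without dTAG replicate 1, dTAG replicate 2 or DMSO replicate 2 and became 1 without DMSO replicate 1, and with library sizes from all reads they were lost too.

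Rises were ranked among called genes with a mean log2 CPM of at least 3, arms that did not overlap and names not based on clones. The largest was that of ABCC9, the regulatory subunit of ATP-sensitive potassium channels, with 39.1 and 32.1 CPM with dTAG, against 8.54 and 8.37 CPM with DMSO (2.07 ± 0.20, adjusted p = 3.05e-06). ALPK2, an atypical kinase, had 45.6 and 46.9 CPM with dTAG, against 14.6 and 11.2 CPM with DMSO (1.84 ± 0.17, adjusted p = 1.60e-06), and ANGPTL4, a secreted inhibitor of lipoprotein lipase, had 47.9 and 49.4 CPM with dTAG, against 18.7 and 13.5 CPM with DMSO (1.60 ± 0.26, adjusted p = 0.000563). ANGPTL4 had 1.12 on all reads (adjusted p = 0.0895). SELPLG, the ligand of P-selectin, had 24.2 and 30.01 CPM with dTAG, against 6.48 and 8.21 CPM with DMSO (1.88 ± 0.30, adjusted p = 0.000492). ZSWIM6, a zinc finger gene, had 3012 and 2339 CPM with dTAG, against 872 and 759 CPM with DMSO (1.71 ± 0.15, adjusted p = 1.55e-06). The antisense gene SBF2-AS1 had 99.6 and 85.2 CPM with dTAG, against 24.99 and 22.8 CPM with DMSO (1.95 ± 0.18, adjusted p = 1.55e-06), but whether counting used strand is not given in the sources used here, so its reads cannot be told from those of the gene it overlaps.

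Of 15 tested oxidative stress and aryl hydrocarbon receptor genes, 7 rose and 2 fell (median 0.36), beside 3.52% and 4.62% of all tested genes. The 7 rises became 4 without dTAG replicate 2, 4 without DMSO replicate 1 and 4 without DMSO replicate 2, and were 7 without dTAG replicate 1, while the 2 falls became 1 without any one of the 4 libraries. HMOX1, which degrades haem, had 114 and 96.7 CPM with dTAG, against 34.3 and 26.9 CPM with DMSO (1.78 ± 0.28, adjusted p = 0.000424). CYP1B1, a cytochrome P450 induced through the aryl hydrocarbon receptor, had 35.4 and 46.1 CPM with dTAG, against 10.6 and 12.6 CPM with DMSO (1.81 ± 0.18, adjusted p = 5.15e-06). Both were higher in each dTAG library than in either DMSO library, as were TXNRD1, a thioredoxin reductase, and GCLM, a subunit of the enzyme that begins glutathione synthesis. TXNRD1 had 1055 and 1033 CPM with dTAG, against 561 and 600.00 CPM with DMSO (0.85 ± 0.14, adjusted p = 0.000542), and GCLM had 62.1 and 50.6 CPM with dTAG, against 33.1 and 28.4 CPM with DMSO (0.87 ± 0.16, adjusted p = 0.00133). TIPARP, another target of the aryl hydrocarbon receptor, fell, with 158 and 132 CPM with dTAG, against 272 and 256 CPM with DMSO (-0.86 ± 0.13, adjusted p = 0.000305). The sterol and lipid list had 1 fall and 1 rise among 19 tested genes, near the 4.62% and 3.52% of all tested genes. Its fall was ABCA1, which exports cholesterol, with 27.2 and 35.6 CPM with dTAG, against 91.4 and 98.7 CPM with DMSO (-1.59 ± 0.15, adjusted p = 2.36e-06). The rise was lost without dTAG replicate 1, DMSO replicate 1 or DMSO replicate 2, and with library sizes from all reads.

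Among 17 cohesin genes and regulators, 1 fell and 2 rose, beside 4.62% and 3.52% of all tested genes. NIPBL itself had 405 and 349 CPM with dTAG, against 269 and 271 CPM with DMSO (0.48 ± 0.13, adjusted p = 0.026), so that its converted reads were not lower with dTAG. That rise did not pass without dTAG replicate 1 (0.37, adjusted p = 0.255), DMSO replicate 1 (0.48, 0.192) or DMSO replicate 2 (0.49, 0.163), or with library sizes from all reads (0.44, 0.358). STAG1, a subunit of the cohesin ring, had 781 and 666 CPM with dTAG, against 411 and 399 CPM with DMSO (0.84 ± 0.13, adjusted p = 0.000421). ESCO2, which acetylates cohesin during S phase, had 1.86 and 1.46 CPM with dTAG, against 6.64 and 4.6 CPM with DMSO (-1.75 ± 0.38, adjusted p = 0.00628), and did not pass without dTAG replicate 2 (-1.58, 0.0802) or DMSO replicate 1 (-1.46, 0.101).

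Calls were few in lists of broad cellular programs, beside 8.14% of all tested genes called in either direction. Of 24 cytosolic ribosomal protein genes, 25 transcription and RNA processing genes and 21 integrated stress and heat shock genes, edgeR and DESeq2 each called 0. At an unadjusted p of 0.05, 1 ribosomal protein gene and 1 transcription gene were lower, and 3 stress genes were lower and 3 higher. Of the 24 ribosomal protein genes, 21 had a negative change and 14 had both dTAG libraries below both DMSO libraries, with 0 the other way round, where 25.1% of all tested genes had their arms apart and lower and 25.8% apart and higher. The medians were -0.16, 0.03 and -0.01 (-0.22, -0.02 and -0.08 with library sizes from all reads). Of 22 p53 targets, 0 fell and 2 rose by edgeR (2 lower and 4 higher at an unadjusted p of 0.05, and 0 lower by DESeq2), a count of rises that became 0 with library sizes from all reads, 0 without dTAG replicate 1, 1 without dTAG replicate 2, 1 without DMSO replicate 1 and 0 without DMSO replicate 2.

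Gene length and neighbourhood are given here as a description. The median length was 61.2 kb for genes lower at 8 h and 94.99 kb for genes higher at 8 h, against 32.4 kb for genes not called. Genes lower at both 8 h and 4 h had a median of 98.4 kb, and 49.5% of them reached 100 kb, as did 34.9% of all lower genes and 20.9% of genes not called. Within 500 kb of their start, lower, higher and uncalled genes had medians of 6, 5 and 8 other tested starts. The nearest tested gene was itself called lower for 10.7% of lower genes and 4.14% of uncalled ones, and called higher for 9.94% of higher genes and 2.91% of uncalled ones. The groups also differed in level, with median log2 CPM of 5.28 for lower, 5.89 for higher and 4.31 for uncalled genes, and no test of these differences was made.

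Genes called on converted reads mostly changed in the same direction on all reads, which include the converted reads of the same libraries. On all reads, 593 of 23162 tested genes were lower (2.56%) and 326 higher (1.41%). Of the 673 genes lower in converted reads, 671 had a negative change on all reads, with a median of -0.80 beside -0.97 on converted reads. All 513 higher genes had a positive change on all reads, with a median of 0.64 beside 0.79. These genes were chosen by their converted reads, so the shared direction is partly built in and is only a description. The share of all tested genes with the same direction in both was not counted. When each gene's converted reads were set against its own reads, 39 genes (0.268%) were called lower and 5 (0.0344%) higher, and 42 of these 44 were also called on converted reads alone. Of the 39, 10 were in the licensing, DNA synthesis and nucleotide lists, which hold 66 of the 14566 genes tested on converted reads. Among the 39 were also 23 of the 58 genes with a more negative effect at 8 h than at 4 h (0.398% of those tested). EXO1 had a relative change of -2.36 (adjusted p = 0.00261), MCM4 one of -1.05 (0.00992) and TYMS one of -1.06 (0.00139). VCAN had a relative change of -0.64 (4.10e-05), and TNC and MAP2 were among the 5 higher ones, at 0.55 (0.00232) and 0.67 (0.00181).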

How the data were processed

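The members of the comparison and the gene lists were chosen with earlier results of these data known. Of 12 libraries used (4, 6 and 8 h after release, dTAGV-1 and DMSO, 2 each), the authors deposited per-gene counts of reads with a T-to-C conversion and of all reads, as whole numbers without normalisation across libraries. The deposited conversion rate is a fraction of T positions, per the file headers. Per the submitters' processing notes, HISAT, Picard and HTSeq were used on hg38, with no order, options or strand setting. Across their 12 files 44565 genes were named, and 137 of them (Y chromosome, X inactivation centre) were not used. Of 27754 genes matched to RefSeq by symbol, 8105 had a start 1 base lower and 528 the same start, and 1 was added to all starts. A file that did not list a gene was given a count of 0 for it.

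Converted reads were fitted with edgeR 4.0.16 (R 4.3.3, limma 3.58.1): TMM scaling, filterByExpr (minimum count 10, minimum total 15), and a quasi-likelihood fit of 6 group means, two-sided, with Benjamini-Hochberg adjustment over all genes at 0.05. Contrasts were dTAG over DMSO at each time, and the 8 h effect minus the 4 h and the 6 h effect. These 12 libraries held 2743668 to 6166400 converted reads each. Replicates differed by more than sampling noise in every group (chi-square per gene 2.82 to 7.93). Counts were also simulated with 100 changed genes of each size among 14208. The changed genes were drawn from those averaging at least 8 CPM over the 12 libraries and were changed only with dTAG at 8 h. The 8 h test recovered 83% of 2-fold and 100% of 4-fold changes with 14 false calls. The test of 8 h against 4 h recovered 44% and 97% with 8 false calls. Recovery among genes below that level was not tested.

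The rule for naming genes took the 15 largest falls and 15 largest rises at 8 h among genes with an adjusted p under 0.05, a mean log2 CPM of at least 3 and arms that did not overlap. Genes with clone-based names were passed over. The rule added up to 4 falls and 4 rises from each of 22 lists and NIPBL. It also added the 8 most negative and 8 most positive differences between the 8 h and 4 h effects (called in that test, with the same minimum level and no clone-based names). Any list member could be named with its value, and a selection is given. Promoters come from RefSeq (GRCh38.p14). Alternatives were DESeq2's size factors and DESeq2's test (DESeq2 1.42.0), no filter, library sizes from all reads, all reads in place of converted ones, converted reads relative to each gene's reads, the replicate number as a block, the 8 h libraries alone, a minimum log2 change of 1 in size, and the omission of each 8 h library. For the share of converted reads they were leaving out mitochondrial genes, the rate over T positions and leaving out each library. Tables and plots were made in Python 3.11.15 with pandas 2.3.3, numpy 2.4.6, scipy 1.17.1 and matplotlib 3.10.9. In R, data.table (version 1.17.8) read the tables.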

Additional observations from a re-analysis of the deposited data

Results flagged for a closer look

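The 8 h effect of dTAG differed from the 4 h effect for 83 genes by the test of the difference itself (edgeR, adjusted over all genes tested), negatively for 58 and positively for 25. The most negative differences by the naming rule were -3.28 for MND1, -3.27 for DTL, -2.98 for XRCC2, -2.96 for ZNF367, -2.79 for WDR76, -2.74 for BRIP1, -2.64 for BRCA2 and -2.55 for BLM, the Bloom helicase. DTL was nearly equal between arms at 4 h, at 20.97 and 22.8 CPM with dTAG, against 18.9 and 26.7 CPM with DMSO, and apart at 8 h. ZNF367 had 6.99 and 4.71 CPM with dTAG, against 6.55 and 6.87 CPM with DMSO at 4 h and 2.09 and 3.33 CPM with dTAG, against 26.9 and 21.5 CPM with DMSO at 8 h. BRCA2, a gene of repair by recombination, had 17.2 and 15.6 CPM with dTAG, against 15.1 and 9.93 CPM with DMSO at 4 h and 5.12 and 4.79 CPM with dTAG, against 28.6 and 19.4 CPM with DMSO at 8 h. WDR76 lost its call without dTAG replicate 2 (-2.46, adjusted p = 0.0747). BLM lost its call without dTAG replicate 1 (-2.63, 0.0548), dTAG replicate 2 (-2.47, 0.0941) or DMSO replicate 1 (-2.35, 0.0773).

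By the same naming rule, the most positive differences were 2.35 for TRPC4, 1.63 for ADAMTS14, 1.48 for MAP2, 1.25 for SLC22A3, 1.20 for IKZF2, 1.16 for ADAMTS6, 1.16 for COL4A1 and 1.14 for STK38L. ADAMTS6, a secreted metalloprotease, had 287 and 278 CPM with dTAG, against 1531 and 1842 CPM with DMSO at 4 h and 379.7 and 344 CPM with dTAG, against 983 and 956 CPM with DMSO at 8 h, lower at both times. STK38L, a kinase of the NDR family, had 126 and 115 CPM with dTAG, against 239.9 and 278 CPM with DMSO at 4 h and 119 and 104 CPM with dTAG, against 113 and 104 CPM with DMSO at 8 h, where the arms overlapped. With library sizes from all reads, TRPC4 and MAP2 kept their calls and the other 6 lost them. Leaving out libraries also ended the calls of ADAMTS14, SLC22A3 and ADAMTS6 (3, 4 and 3 of the 4 libraries), and of IKZF2 and STK38L without DMSO replicate 2 (1.15, adjusted p = 0.0567, and 1.08, 0.0598).

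Between 8 h and 6 h the effect differed for a single gene, EXO1, by -3.53. It had 6.9 and 3.46 CPM with dTAG, against 5.59 and 6.63 CPM with DMSO at 6 h, where the arms overlapped.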

How the results depend on the processing

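Falls and rises at 8 h numbered 673 and 513. They numbered 954 and 743 with the 8 h libraries alone (14166 genes tested) and 521 and 414 with DESeq2's test. The counts were 323 and 160 under a minimum log2 change of 1 in size, 39 and 5 relative to each gene's own reads, 247 rises with library sizes from all reads and 326 rises on all reads. Leaving out 1 library at a time gave 348 to 405 falls and 191 to 339 rises. For the 8 h effect minus the 4 h effect, the 58 negative and 25 positive differences became 124 and 102 without the filter, 14 and 3 on all reads and 92 and 52 with the replicate number as a block. Positive differences were 43 with DESeq2's test and 6 with library sizes from all reads, where falls made up 92.7% of calls rather than 69.9% and the median over all genes moved to -0.125 from 0.0194. Leaving out 1 library gave 20 to 43 negative and 5 to 13 positive differences. For the 8 h effect minus the 6 h effect, the single gene became 10 with DESeq2's test, 61 without the filter, 8 with library sizes from all reads, 0 on all reads (377 at an unadjusted p of 0.05), 8 with the block and 0 to 1 without a library. The causes of these shifts were not tested. The share of converted reads differed between arms by -0.197 percentage points (dTAG minus DMSO), and by -1.002 to 0.608 percentage points without a library.

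Same-numbered libraries at 8 h had deviations that correlated at 0.169, and over the 15 pairs of groups the correlation ran from -0.227 to 0.301. The labels state no pairing, so the numbers were not taken to pair libraries. With the replicate block 790 genes fell and 640 rose at 8 h, and all 80 genes named with an 8 h change kept their calls.

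Of those 80 genes, 77 kept call and direction with library sizes from all reads, 76 of the 78 with a value in DESeq2's test, and 69 without each of the 4 libraries. On all reads, 68 of the 80 kept call and direction, as did 7 of the 19 genes named with a called difference between the 8 h and 4 h effects. Relative to each gene's own reads, 15 of the 80 kept both, 53 kept the direction but lost the call, and 12 turned sign. Of these 12, none had a call: MN1 (0.35), CDKN2B (0.12), CDC6 (0.33), HAS2 (0.14), COL4A1 (0.33), FST (0.081), SNAI2 (0.17), RUNX2 (0.056), GCLM (-0.078), TXNRD1 (-0.078), ABCA1 (0.10) and STAG1 (-0.087). With 2 libraries an arm and 2743668 to 6166400 converted reads a library, the test had less power for small changes. Among genes averaging at least 8 CPM, the simulation recovered 83% of 2-fold changes at 8 h and 44% of 2-fold differences between times. Recovery among genes below that level was not tested.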
